A study of Mus musculus with 4 samples.

Results

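The 10 genes described here encode matrix proteins of cartilage other than collagens. They were chosen by name, with earlier results of these data known, as Acan, Hapln1, Matn1, Matn3, Matn4, Comp, Chad, Epyc, 3110079O15Rik (now Snorc) and Lect1 (now Cnmd). All 10 were present among the 18298 genes that had any read, and all 10 passed the filter on low counts, which left 14123 genes for testing. The cells were primary rib chondrocytes, the cells that make cartilage, taken from E18.5 mouse embryos on a C57BL/6 background and cultured to passage 1. Messenger RNA was sequenced from 2 samples with the genotype Dermo1-Cre;Senp6f/f (Senp6-Mut, here the mutant) and from 2 samples with the genotype Senp6f/f (WT, here the control). The floxed allele of Senp6, which encodes a protease that removes SUMO from other proteins, was thus present in all 4 samples, and the groups differed in Dermo1-Cre. Dermo1-Cre is expressed from the Twist2 locus in the mesenchymal progenitors that give rise to cartilage and bone, so the deletion precedes the chondrocyte stage and is not limited to chondrocytes. The labels do not say how many embryos went into a sample, so p values measure the spread between these samples only.

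Cartilage matrix is a network of collagen fibrils that holds a water-binding gel of proteoglycans. Aggrecan, the main proteoglycan, carries chondroitin sulfate chains and binds hyaluronan, and the link protein fastens it there. Matrilins, COMP and chondroadherin are adaptor proteins that connect the collagen fibrils with the proteoglycans and the cells. Chondrocytes grown as a monolayer are known to lose expression of such genes and to take up that of interstitial collagens.

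Between 21.0 and 31.0 megareads were counted on genes per sample. Counting error is therefore small for most of the 10 genes, which had 95 to 5418 reads in the control samples and 9 to 3770 in the mutant samples. The control samples stood apart from each other. Over 11737 genes on the log2(RPKM + 1) scale, control replicate 2 lay closer to mutant replicate 1 (Euclidean distance 33.0) than to control replicate 1 (39.5). Mutant replicate 2 had 11354 reads on Xist and 7 on 4 Y-linked genes, while the other samples had 2 to 5 and 2088 to 3584, so the mutant pair was not of one sex. Senp6 itself had an RPKM (reads per kilobase of gene length, scaled to the library total) of 10.8 and 18.0 in the controls and of 12.0 and 8.07 in the mutants, and these ranges overlapped (log2 fold change -0.56 ± 0.28 (SE), adjusted p = 0.410, edgeR). The count of a whole gene includes exons that the deletion leaves in place, so it is a weak check of the genotype.

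Promoter sequences are shown for 4 of the genes, chosen because they span the smallest and the largest difference between the genotypes (Acan and Matn1) and because they hold the motifs found by search (Chad and Epyc). The RefSeq table gave windows for 8 of the 10 genes, from 250 bases before to 50 bases after an annotated start. Comp and 3110079O15Rik had no entry. All are on build GRCm38.p6 and read 5′ to 3′ on the strand of the gene. Capitals mark a TATA box (TATAAA, gene strand) or a heptamer bound by SOX proteins (AACAAAG or else AACAATG, also ATCAAAG or else ATCAATG, also TACAAAG or else TACAATG, also TTCAAAG or else TTCAATG, on either strand). The windows are chr4:130944135-130944434 (plus strand) for Matn1, chr7:79052976-79053275 (plus strand) for Acan, chr11:94564797-94565096 (plus strand) for Chad and chr10:97646853-97647152 (plus strand, the downstream of its 2 starts) for Epyc.
Matn1: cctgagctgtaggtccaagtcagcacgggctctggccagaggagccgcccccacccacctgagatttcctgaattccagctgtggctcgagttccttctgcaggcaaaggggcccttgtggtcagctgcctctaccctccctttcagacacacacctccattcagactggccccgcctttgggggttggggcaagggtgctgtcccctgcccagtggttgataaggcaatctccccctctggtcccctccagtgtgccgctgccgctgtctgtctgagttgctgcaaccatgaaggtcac
Acan: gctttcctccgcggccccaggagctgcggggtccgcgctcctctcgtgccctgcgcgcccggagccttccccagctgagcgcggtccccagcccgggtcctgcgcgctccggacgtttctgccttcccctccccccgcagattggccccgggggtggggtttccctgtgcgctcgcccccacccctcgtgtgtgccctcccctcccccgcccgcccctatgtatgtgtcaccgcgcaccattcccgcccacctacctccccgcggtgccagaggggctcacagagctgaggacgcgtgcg
Chad: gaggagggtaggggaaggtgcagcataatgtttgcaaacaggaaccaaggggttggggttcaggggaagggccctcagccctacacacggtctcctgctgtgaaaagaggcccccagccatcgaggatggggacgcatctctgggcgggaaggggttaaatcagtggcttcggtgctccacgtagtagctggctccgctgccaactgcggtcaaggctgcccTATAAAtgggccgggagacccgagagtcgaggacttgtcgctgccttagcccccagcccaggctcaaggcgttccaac
Epyc: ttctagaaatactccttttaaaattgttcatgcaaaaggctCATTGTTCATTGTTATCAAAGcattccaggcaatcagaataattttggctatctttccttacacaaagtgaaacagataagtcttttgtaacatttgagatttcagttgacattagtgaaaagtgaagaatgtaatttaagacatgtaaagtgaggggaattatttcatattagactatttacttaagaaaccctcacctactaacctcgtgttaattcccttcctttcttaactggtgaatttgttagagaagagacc

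These windows differed widely in base composition. GC content was 74.0% in the Acan window, which held 31 CpG dinucleotides, 61.3% in that of Matn1 and 32.3% in that of Epyc. A TATA box was found in 1 of the 8 genes, Chad, where it began 28 bases before the start, and 8.88% of 27025 mouse promoters of this length held one. A SOX heptamer was found in 1 of the 8 genes, Epyc, against 24.9% of the 27025 promoters. Both shares count only the first listed window of each gene, while every listed window of the 8 genes was searched. The window shown for Epyc held 3 matches that followed directly on each other, and the window of its other start held 2. These matches are descriptions of the sequence and no binding was measured.

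All 10 genes had lower levels in both mutant samples than in both control samples. This holds for 19.2% of all genes tested, and 28.3% lay above in both mutants. The summed RPKM of the 10 genes was 173 and 149 in the controls and 46.7 and 70.2 in the mutants. The median log2 fold change of the 10 genes was -1.61, beside 0.0097 over all genes tested (48.6% of which were below 0), and single genes ranged from 1.46-fold lower (Acan) to 9.07-fold lower (Matn1). None of the 10 passed an adjusted p of 0.05 in the edgeR quasi-likelihood test, and neither did any other gene (0% of genes tested). A log2 fold change below -1 was found for 9 of the 10, beside 2.6% of all genes. Of the 10, 9 had an unadjusted p under 0.05, as did 6.28% of all genes in the lower direction (9.29% in the higher direction), and 7 had an adjusted p under 0.1, against 0.496% of all genes in the lower direction and 1.52% in the higher. DESeq2 on the same counts called 8 of the 10 lower and none higher, beside 1.89% of all genes called lower and 3.11% called higher. Without a filter on low counts edgeR called 7 of the 10 lower (0.333% of all genes lower, 1.23% higher), and with a term for the replicate number it called 1, Lect1 (0.234% lower, 0.595% higher). In bulk samples, fewer chondrocytes in a culture and less RNA per chondrocyte cannot be told apart.

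**Figure D1:**
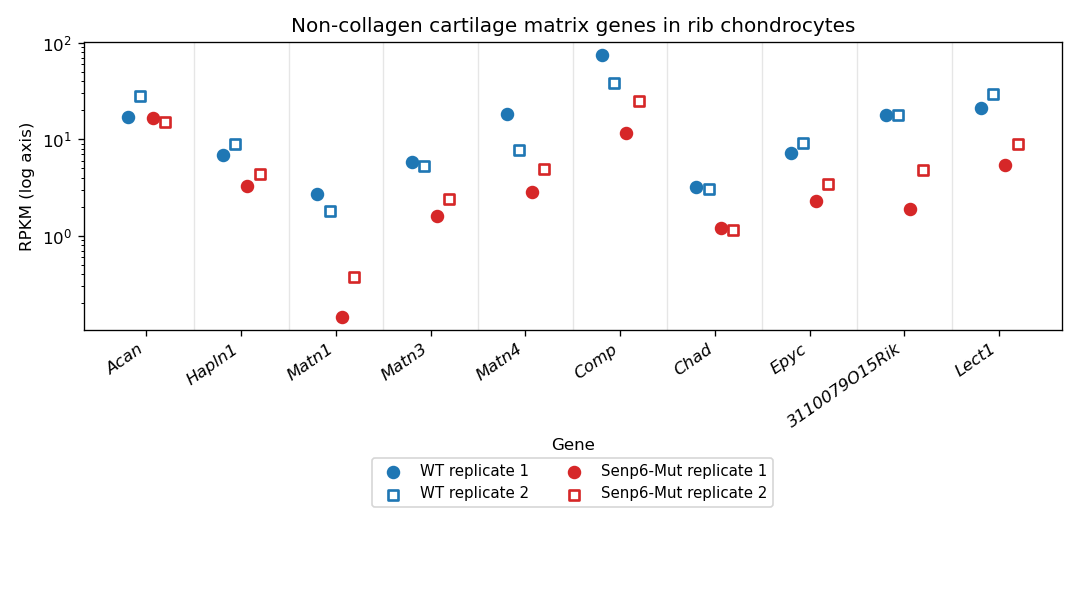
RPKM of each of the 10 genes (log axis) in the 2 control samples (blue) and the 2 mutant samples (red), 1 point per sample, with replicate 1 filled and replicate 2 open. Both red points lie below both blue points for every gene, by the widest margin for Matn1 and the narrowest for Acan.

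Among the proteins of the aggregating proteoglycan, Acan encodes aggrecan. Its RPKM was 16.8 in the first and 28.2 in the second control sample, while the mutants had 16.5 and 15.1. The lowest control and the highest mutant sample were thus nearly level, and the group means differed by less than the spread of the controls (22.5 ± 8.05 against 15.8 ± 1.03, SD, n = 2 each). The log2 fold change was -0.54 ± 0.23 (SE), the smallest of the 10, with an adjusted p of 0.326 (edgeR). It rested on control replicate 2, without which it was -0.18. Without control replicate 1, the control nearly level with the mutants, it was -0.85.

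Hapln1 encodes the link protein, which locks aggrecan onto hyaluronan. It had an RPKM of 6.93 and 8.81 in the controls and of 3.24 and 4.38 in the mutants, so each mutant value was below each control value. Hapln1 was 2.13-fold lower (log2 fold change -1.09 ± 0.19 (SE), adjusted p = 0.0885, edgeR). DESeq2 gave an adjusted p of 0.000155. Among the 10 genes its fold change was the second smallest after that of Acan, its partner in the aggregate.

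The matrilins are multimeric adaptor proteins with von Willebrand factor A domains, and the genes Matn1, Matn3 and Matn4 differed in their levels by several fold in the control cultures. Matn1, typical of mature hyaline cartilage, had an RPKM of 2.71 and 1.82 in the controls and of 0.145 and 0.371 in the mutants. These values rest on 114 and 95 reads in the controls and on 9 and 21 reads in the mutants. The exact Poisson 95% interval for the mutants was 4.12 to 17.1 and 13.0 to 32.1 reads and covers counting error only. Matn1 was the least abundant of the 10 genes in both genotypes, and its difference was the widest, at 9.07-fold lower (log2 fold change -3.18 ± 0.49 (SE), adjusted p = 0.0833, edgeR). The log2 fold change was -3.97 without mutant replicate 2 and -2.66 without mutant replicate 1. By fold change it was the 10th lowest of the 14123 genes tested. Its adjusted p was 9.21e-06 with DESeq2.

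Matn3, whose human counterpart is mutated in a form of multiple epiphyseal dysplasia, had an RPKM of 5.76 and 5.24 in the controls and of 1.61 and 2.42 in the mutants. The controls lay close together and the gap to the mutants was wider than the spread within either pair. It was 2.83-fold lower, with a standard error of 0.24 on the log2 scale and an adjusted p of 0.0833 (edgeR) or 2.96e-05 (DESeq2).

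Matn4, the matrilin with the broadest expression outside cartilage along with Matn2, had an RPKM of 18.2 in control replicate 1 and 7.78 in control replicate 2. The mutants had 2.83 and 4.87. The controls thus differed 2.33-fold from each other, and the log2 fold change of -1.81 ± 0.44 (SE, adjusted p = 0.134, edgeR) moved to -1.04 without control replicate 1. DESeq2 called it, with an adjusted p of 0.000352. Exons of Matn4 share bases with Rbpjl on the other strand in the GENCODE annotation, and Rbpjl had at most 5 reads in any sample.

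Of the proteins that bind collagen fibrils, Comp encodes cartilage oligomeric matrix protein, a pentamer of the thrombospondin family. Its RPKM was 73.6 and 38.6 in the controls, the highest of the 10 genes in each, and 11.6 and 24.9 in the mutants. In the mutants it led by the mean alone, since Acan was higher in replicate 1. Both pairs were spread about as widely, 1.91-fold between the controls and 2.15-fold between the mutants. The log2 fold change was -1.68 ± 0.43 (SE, adjusted p = 0.142, edgeR), it was -1.11 without control replicate 1 and -2.31 without mutant replicate 2, and DESeq2 did not call it either (adjusted p = 0.169).

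Chad encodes chondroadherin, a leucine-rich repeat protein that binds collagen and integrins. Its values were the tightest within genotypes apart from the controls of 3110079O15Rik, with an RPKM of 3.20 and 3.06 in the controls and of 1.19 and 1.14 in the mutants. They rest on 111 and 132 reads in the controls and on 61 and 53 in the mutants. The exact Poisson 95% intervals were 2.63 to 3.85 and 2.56 to 3.62 RPKM in the controls. In the mutants they were 0.911 to 1.53 and 0.850 to 1.48. Replicates thus lay closer together than counting error resolves. The difference was 2.76-fold (log2 fold change -1.47 ± 0.26 (SE), adjusted p = 0.0885, edgeR, and 0.00742, DESeq2). Leaving out any 1 sample gave a value between -1.55 and -1.41. Chad lies within Acsf2 on the opposite strand. No exons of the pair share bases, and Acsf2 had an RPKM of 12.7 to 14.3 in the 4 samples (log2 fold change -0.13 ± 0.14 (SE), adjusted p = 0.716, edgeR).

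Epyc encodes epiphycan, a small leucine-rich proteoglycan found in growth plate cartilage. It had an RPKM of 7.13 and 9.08 in the controls and of 2.28 and 3.45 in the mutants. The mutant values were below both controls by more than the spread within either pair (log2 fold change -1.54 ± 0.26 (SE), adjusted p = 0.0872, edgeR, and 6.25e-05, DESeq2). Its exons overlap Gm10754 on the opposite strand, which had at most 1 read.

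The remaining pair are transmembrane proteins of chondrocytes. 3110079O15Rik, now named Snorc, encodes a small chondroitin sulfate proteoglycan. Its RPKM was 17.8 and 17.6 in the controls, the closest pair among the 10 genes, and 1.89 and 4.75 in the mutants. The mutants differed 2.52-fold from each other, but the higher of them was still 3.71-fold below the lower control. Its log2 fold change was -2.47 ± 0.42 (SE, adjusted p = 0.0872, edgeR, and 8.75e-06, DESeq2). The fold change was -3.25 without mutant replicate 2 and -1.96 without mutant replicate 1.

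Lect1, now named Cnmd, encodes chondromodulin, a precursor whose secreted part inhibits the growth of blood vessels in cartilage. Its RPKM was 20.8 and 29.3 in the controls and 5.39 and 8.85 in the mutants. It was 3.63-fold lower (log2 fold change -1.86 ± 0.27 (SE)) and had the smallest adjusted p of the 10 genes, 0.0789 with edgeR and 2.40e-08 with DESeq2.

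**Figure D2:**
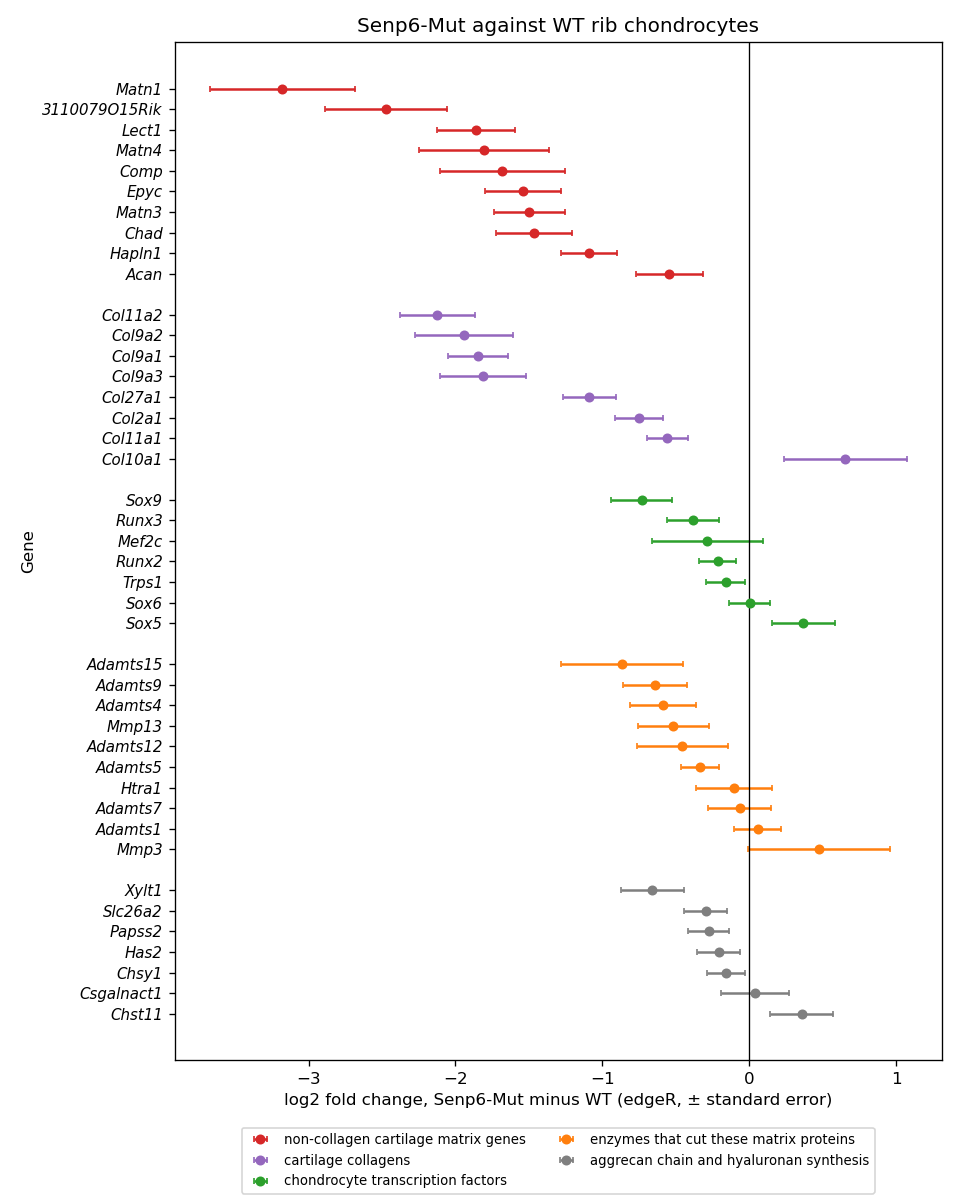
Log2 fold change of mutant against control (edgeR, bars ± 1 standard error) for the 10 genes (red) and for 4 lists of related genes, 1 row per gene. All red points lie left of 0, from -3.18 for Matn1 to -0.54 for Acan, and the collagens other than Col10a1 lie left of 0 as well.

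The 10 genes also varied within a genotype, and not as 1 block. Between the control samples, 6 of the 10 were higher in replicate 1, most of all Matn4 (2.33-fold) and Comp (1.91-fold), while Acan, Lect1, Epyc and Hapln1 were higher in replicate 2. Between the mutant samples, 8 of the 10 were higher in replicate 2, with Acan and Chad as the exceptions, and the median difference was 0.66 on the log2 scale. The order of the RPKM levels changed accordingly. In the controls Comp came first, clear of Lect1. From Lect1 through Acan, 3110079O15Rik, Matn4 and Epyc to Hapln1, neighbours in the order overlapped in their ranges, and Matn3, Chad and Matn1 followed without overlap. In the mutants Comp and Acan overlapped at the top, and Lect1 came next without overlap to either side. By the mean alone, 3110079O15Rik went from place 4 to place 6, where its range overlapped those of its neighbours Hapln1 and Epyc. Acan accounted for 9.72% and 18.9% of the summed RPKM of the 10 genes in the controls and for 35.4% and 21.5% in the mutants.

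**Figure D3:**
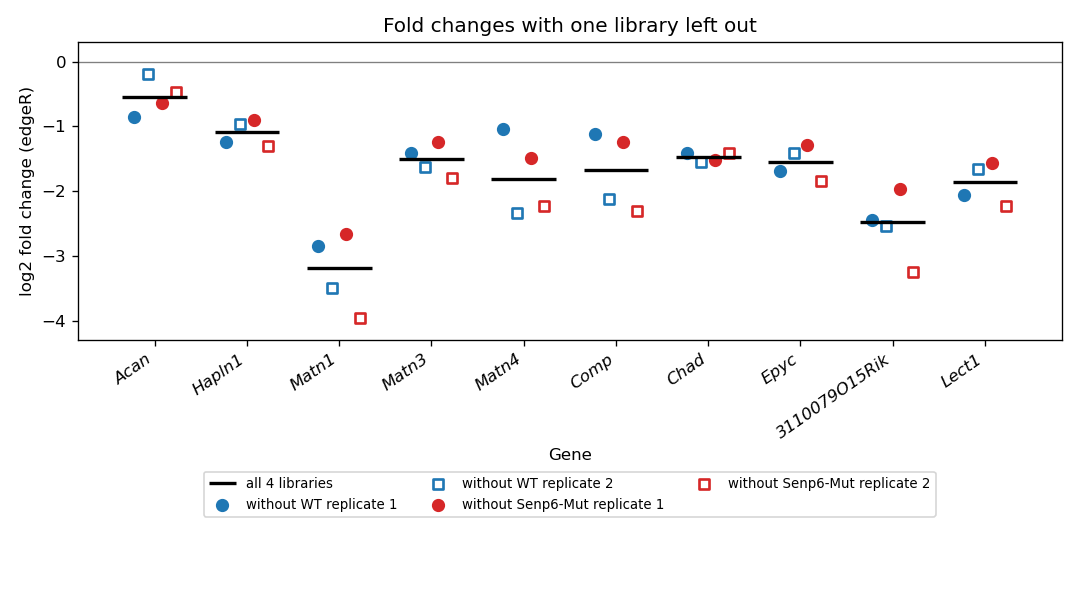
Log2 fold change of each gene with all 4 samples (black line) and with 1 sample left out (points; blue, a control left out; red, a mutant left out). Every value stays below 0. Matn4 and Comp move most with control replicate 1, and Acan lies closest to 0, at -0.18 without control replicate 2.

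The genes were set beside Col2a1, the main collagen of cartilage, in the same sample, which asks whether they moved to the same degree. The ratio of RPKM to that of Col2a1 was lower in both mutants than in both controls for 9 of the 10 genes. Over all genes tested this ratio was lower in both mutants for 1.02% and higher in both for 85.4%, and Col2a1 itself had both mutants below both controls. Matn1 was at 0.445% and 0.275% of Col2a1 in the controls and at 0.0435% and 0.0834% in the mutants. The ratio of 3110079O15Rik was 2.93% and 2.68% against 0.565% and 1.07%. For Acan the genotypes overlapped, with 2.76% and 4.28% in the controls and 4.96% and 3.39% in the mutants. Comp came close to overlapping, at 5.85% in control replicate 2 and 5.58% in mutant replicate 2. With 2 samples per group an exact two-sided permutation test of such a ratio cannot give a p below 0.333, so the ratios are given without a test.

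**Figure D4:**
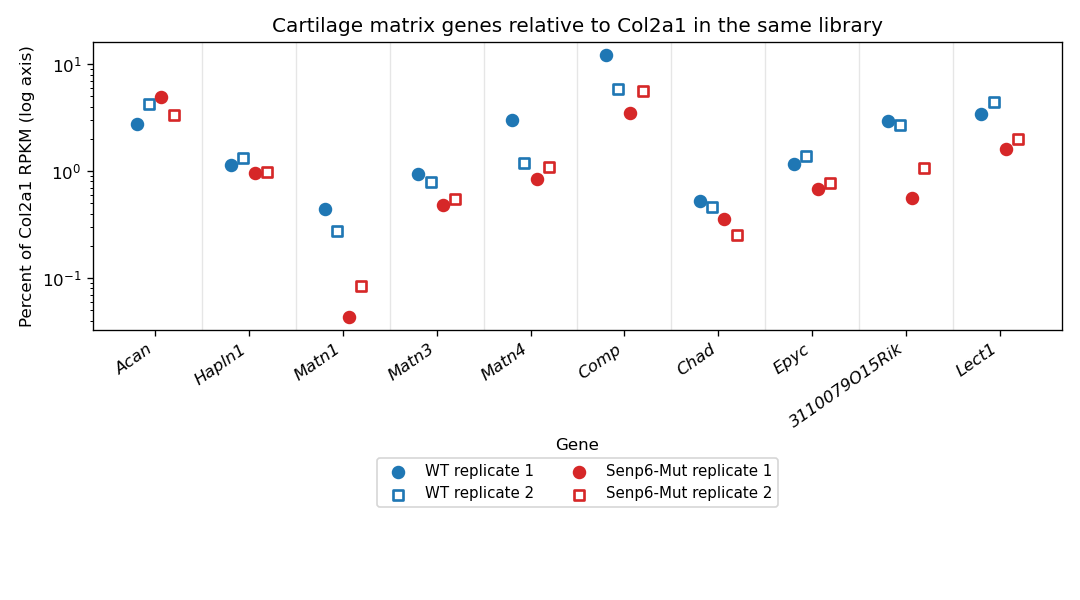
RPKM of each gene as a percent of the RPKM of Col2a1 in the same sample (log axis), 1 point per sample, with replicate 1 filled and replicate 2 open. The red mutant points lie below the blue control points for 9 genes and overlap them for Acan.

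Collagens II, IX and XI form the fibrils to which these proteins bind. Of 8 cartilage collagens, 7 had both mutants below both controls (19.2% of all genes). The median log2 fold change of the 8 was -1.45. None passed an adjusted p of 0.05 with edgeR, and DESeq2 called 7 lower (1.89% of all genes). With a term for the replicate number, edgeR called Col9a1 (adjusted p = 0.0365) and Col11a2 (0.0396) lower, beside 0.234% of all genes. Col2a1 had an RPKM of 609 and 659 in the controls and of 334 and 445 in the mutants (log2 fold change -0.75 ± 0.16 (SE), adjusted p = 0.114, edgeR). Col11a1 was at -0.56 ± 0.14 (SE, adjusted p = 0.137, edgeR), close to Acan. Larger values were found for Col9a1 (-1.85 ± 0.20 (SE), adjusted p = 0.0739, edgeR) and Col11a2 (-2.12 ± 0.26 (SE), adjusted p = 0.0739, edgeR), which encode chains of the fibril-associated collagen IX and of collagen XI. Col10a1, the collagen of hypertrophic chondrocytes, was the exception and is named outside the rule for naming. Its RPKM was 1.47 and 2.21 in the controls and 1.76 and 4.24 in the mutants, so the genotypes overlapped (log2 fold change 0.65 ± 0.42 (SE), adjusted p = 0.527, edgeR).

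The transcription factors of chondrocytes had smaller values by the median, though Sox9 was near Col2a1 (log2 fold change -0.75). Sox9, which drives transcription of Acan, Col2a1 and many other cartilage genes, had an RPKM of 45.6 and 31.3 in the controls and of 24.7 and 23.1 in the mutants (log2 fold change -0.73 ± 0.21 (SE), adjusted p = 0.173, edgeR, and 0.0236, DESeq2). Runx2, a factor of hypertrophy and bone formation, was at -0.22 ± 0.13 (SE, adjusted p = 0.489, edgeR), Runx3 at -0.38 ± 0.18 (SE, adjusted p = 0.375, edgeR) and Trps1 at -0.16 ± 0.13 (SE, adjusted p = 0.628, edgeR). The partners of Sox9, chosen after their values were seen, had an RPKM of 1.56 and 2.31 (Sox5) and of 2.56 and 2.61 (Sox6) in the controls. In the mutants Sox5 had 2.34 and 2.81 and Sox6 had 2.55 and 2.79. Of the 7 factors tested none passed the threshold with edgeR, and the median was -0.22. Both mutants lay below both controls for 3 (19.2% of all genes) and above for 1 (28.3%).

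The enzymes that cut aggrecan, COMP or related proteins were also tested. None of the 10 passed, in either direction, with edgeR or DESeq2, and their median log2 fold change was -0.39. Adamts5, the main aggrecanase of mouse cartilage, had an RPKM of 25.3 and 25.5 in the controls and of 21.9 and 19.5 in the mutants. Adamts1 was at 0.058 ± 0.16 (SE, adjusted p = 0.903, edgeR), the serine protease Htra1 at -0.10 ± 0.26 (SE, adjusted p = 0.889, edgeR), and the collagenase Mmp13 at -0.52 ± 0.24 (SE, adjusted p = 0.374, edgeR). Of 7 genes that make the sulfated chains of aggrecan or hyaluronan none passed with either tool, and their median was -0.21. The chondroitin synthase Chsy1 was at -0.16 ± 0.13 (SE, adjusted p = 0.635, edgeR) and the hyaluronan synthase Has2 at -0.21 ± 0.15 (SE, adjusted p = 0.567, edgeR). Papss2, which makes the sulfate donor, was at -0.28 ± 0.14 (SE, adjusted p = 0.412, edgeR), and the chondroitin sulfotransferase Chst11 was at 0.36 ± 0.21 (SE, adjusted p = 0.491, edgeR).

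Relatives of the 10 genes in the same protein families had mostly negative values but did not all share 1 direction. Of 13 tested, 10 had a negative log2 fold change, beside 48.6% of all genes. None passed with edgeR and the median was -0.36. Both mutants lay below both controls for 4 (19.2% of all genes) and above for 1 (28.3%). DESeq2 called Thbs1 higher (adjusted p = 6.16e-09) and Matn2 (0.000221) and Vcan (0.0342) lower. Over all genes DESeq2 called 3.11% higher and 1.89% lower. With a term for the replicate number, edgeR called Thbs1 higher (adjusted p = 0.0416) and Matn2 lower (0.0396), beside 0.595% of all genes called higher and 0.234% lower. Thbs1, a thrombospondin like Comp, had an RPKM of 311 and 357 in the controls and of 669 and 782 in the mutants (log2 fold change 1.08 ± 0.14 (SE), adjusted p = 0.0775, edgeR), the opposite side from Comp. Thbs2 was at -0.50 ± 0.16 (SE, adjusted p = 0.208, edgeR). Vcan, which encodes versican, the aggregating proteoglycan of soft connective tissue, had an RPKM of 61.4 and 66.7 in the controls and of 49.7 and 46.3 in the mutants, a log2 fold change of -0.46 ± 0.13 (SE, adjusted p = 0.167, edgeR) and thus near that of Acan. Ogn, a small leucine-rich proteoglycan like Epyc, was at -0.36 ± 0.14 (SE, adjusted p = 0.281, edgeR). Matn2, named here after its values were seen, had an RPKM of 34.5 and 26.8 in the controls and of 16.1 and 9.24 in the mutants (log2 fold change -1.31 ± 0.29 (SE), adjusted p = 0.114, edgeR).

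Other proteins that chondrocytes secrete had mostly negative values. Of 15 tested, 12 had a negative log2 fold change, beside 48.6% of all genes. Both mutants lay below both controls for 7 (19.2% of all genes) and above for 1 (28.3%). None passed with edgeR, and the median was -0.64. DESeq2 called 3 lower and 1 higher (1.89% and 3.11% of all genes). The most abundant, the mineralization inhibitor Mgp, had an RPKM of 1689 and 1472 in the controls and of 1268 and 1619 in the mutants, so the genotypes overlapped. Fmod and Prelp, which encode collagen-binding leucine-rich proteins, were at -0.64 ± 0.29 (SE, adjusted p = 0.353, edgeR) and at -0.50 ± 0.21 (SE, adjusted p = 0.329, edgeR), and Pcolce2 at -0.36 ± 0.26 (SE, adjusted p = 0.575, edgeR). Outside the rule for naming, Ucma, a secreted protein of growth plate cartilage, was chosen after its values were seen. It had an RPKM of 16.6 and 16.1 in the controls and of 1.39 and 3.52 in the mutants (log2 fold change -2.79 ± 0.40 (SE), adjusted p = 0.0789, edgeR). Prg4, the gene that DESeq2 called higher (adjusted p = 0.000297), was also named after its values were seen. Its RPKM was 0.745 and 1.19 in the controls and 2.40 and 4.31 in the mutants (log2 fold change 1.74 ± 0.35 (SE), adjusted p = 0.0985, edgeR). With a term for the replicate number, edgeR called Ucma lower (adjusted p = 0.0420, 0.234% of all genes) and Prg4 higher (0.0444, 0.595%).

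The genes nearest to the 10 in their pattern were sought among 11632 other genes with a mean RPKM of at least 1. The measure was the Euclidean distance over the 4 samples between centred log2(RPKM + 0.1) values and the median profile of the 10 genes. The nearest were Pax1 (0.217), Slc1a3 (0.306), Col9a1 (0.343), Sult5a1 (0.347) and Mia (0.351). Pax1 is a transcription factor of the sclerotome, the embryonic source of ribs and vertebrae, and Mia encodes a secreted protein of cartilage. Pax1 had an RPKM of 9.63 and 8.48 in the controls and of 2.48 and 4.67 in the mutants. Of the 10 genes themselves, Matn3 lay closest to the median profile (0.129) and Matn1 farthest (1.34), just beyond Acan (1.31).

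The label of the cells was checked against markers of other cell types. Chondrocyte markers outside the 10 genes were present in every sample, with Col2a1 at an RPKM of 334 to 659 and Sox9 at 23.1 to 45.6. Col1a1, an interstitial collagen of fibroblasts and osteoblasts, was 7.44 to 14.5 times the RPKM of Col2a1, and this ratio overlapped between the genotypes. The 7 fibroblast markers had a summed RPKM of 9430 to 13135 in the controls and of 7293 to 9695 in the mutants, and they did not share 1 direction. Col1a1, Col1a2 and Col3a1 had both mutants below both controls, and Thy1 and Fn1 had both above. None passed with edgeR, and DESeq2 called 1 of them, Thy1, higher (adjusted p = 2.59e-06), beside 3.11% of all genes. With a term for the replicate number, edgeR called Thy1 higher as well (adjusted p = 0.0365), beside 0.595% of all genes. Thy1 had an RPKM of 219 and 341 in the controls and of 609 and 832 in the mutants. The fibroblast genes named were picked after their values were seen. The summed RPKM of 7 osteoblast markers was 70.0 to 172 in the controls and 19.5 to 41.4 in the mutants, with both mutants below both controls for the 4 of them that were tested. The control sums differed in part through Ibsp, at an RPKM of 70.7 in replicate 1 and 16.7 in replicate 2. The untested Bglap, Bglap2 and Dmp1 were near the floor, at an RPKM of at most 0.827. By the mean they were higher in the mutants, with overlapping ranges. The summed RPKM of 10 muscle markers was 32.9 to 99.4 in the controls and 163 to 182 in the mutants, with both mutants above both controls for 7 of 10. Over all genes tested, both mutants lay below both controls for 19.2% and above for 28.3%. The muscle factor Myod1, picked after its values were seen, was at an RPKM of 0.537 to 1.80 in the controls and of 4.30 to 9.30 in the mutants. Macrophage markers were at a summed RPKM of 17.2 to 20.1 in the controls and of 8.69 to 12.1 in the mutants, endothelial markers at 0.891 to 1.52 in all samples, and erythroid markers at no more than 0.364. Tendon markers were at 42.1 to 68.1 in the controls and at 42.6 to 46.5 in the mutants. The part of these other cell types in the values of the 10 genes was not tested.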

How the data were processed

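RNA of cultured rib chondrocytes was sequenced by a service, and 1 table per sample was analysed (2 mutant and 2 control samples). The submitters' processing notes name SAMtools and the genome build mm9. The aligner, the counting tool, the annotation and any use of strand are not given in the sources used here. The authors deposited raw read counts per gene, RPKM values, and a coverage percent (how much of each gene had reads). Recomputing the RPKM from count, gene length and the total on genes gave the deposited values. Genes absent from a table were given a count of 0.

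Genes needed 10 or more counts in 2 or more samples, which kept 14123. They were tested by quasi-likelihood (edgeR 4.0.16 in R 4.3.3, robust, TMM factors 0.966 to 1.03), with Benjamini-Hochberg adjustment across all of them. The standard error is the fold change over the root of F. For a 2 kb gene, 10 counts equal an RPKM of 0.238 in the shallowest library. The alternatives used DESeq2 1.42.0, limma 3.58.1, other filters and size factors, the replicate number as a block, and each sample left out. The scripts were tested on simulated counts. Chi-square over degrees of freedom between replicates was 49.7 (controls) and 24.0 (mutants), so neither pair held a repeated library. Pairs across the genotypes were not checked in this way.

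The members and lists were chosen with earlier results of these data known. Named are the 10 members, Senp6, list genes past an adjusted p of 0.05 or, with none, up to 4 of the list by highest mean RPKM, and the 5 nearest profiles. Promoters are from RefSeq (GRCm38.p6) and strand overlaps from GENCODE.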

Additional observations from a re-analysis of the deposited data

How the results depend on the processing

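All 10 genes had a negative log2 fold change under every alternative that tested them, but the calls differed. With edgeR, 0 of the 10 and 0 genes in all passed an adjusted p of 0.05 (887 lower and 1312 higher genes had an unadjusted p under 0.05, and the smallest adjusted p was 0.0512). DESeq2 called 8 of the 10 lower, with 439 higher and 267 lower genes in all. Without a filter on low counts edgeR called 7 of the 10, with 225 higher and 61 lower in all. RLE size factors, at least 10 counts in every sample (which drops Matn1), non-robust estimation and limma on RPKM called none. Equal replicate numbers were not treated as pairs: across genes, the replicate difference in controls and that in mutants had a correlation of -0.0422. A block for the number made edgeR call 84 higher and 33 lower genes and 1 of the 10, Lect1.

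Leaving out 1 sample in turn gave 96 to 1331 higher and 47 to 1492 lower genes and 4 to 8 of the 10, with a median log2 fold change of the 10 genes from -2.04 to -1.39. Such a fit assumes that the lone sample of a group varies like the other group. Over all genes the most calls came without control replicate 2 and the fewest without mutant replicate 2. Of the 10 genes, 8 were called without either control, 4 without mutant replicate 1 and 6 without mutant replicate 2. The median was -1.30 with limma on log2(RPKM + 1), with or without a filter, where the pseudocount shrinks low genes such as Matn1 (-1.37). Depth limits Matn1 most, at 9 and 21 reads in the mutants.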

Other observations

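The coverage percent, the share of a gene's length with reads, was deposited too and was not tested. For Acan it was 99.4% to 99.9% in the 4 samples, and for Comp 98.3% to 99.2%, so reads spanned nearly the whole of these genes in both genotypes. Matn3 and Epyc were covered less fully, at 56.3% to 74.8% and 64.5% to 68.8%. For Matn1 coverage was 92.2% and 91.5% in the controls and 25.9% and 57.4% in the mutants, at 9 and 21 reads.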
